A study of Homo sapiens with 6 samples.

Results

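The genes described here encode WNT ligands, the proteins that secrete them, their receptors, secreted and intracellular inhibitors of the pathway, β-catenin and the TCF/LEF transcription factors. They were picked by gene name among the protein-coding genes of the count table and number 59 of 58870 genes. RNA was sequenced from an established line of human melanoma cells, WM164, with 3 libraries labelled GFP and 3 labelled T-MGM. By the study's methods, the cells were grown in RPMI medium with fetal bovine serum and were transduced with lentivirus and selected with an antibiotic, the control with green fluorescent protein (GFP) and the other group with T-MGM, a fusion in which the melanocyte isoform of MITF and the small MAF protein MAFG are joined by a flexible linker and driven by the EF1α promoter. The comparison asks how transcript levels differ when MAFG and MITF are held together as a dimer. The labels do not say whether the libraries of a group came from separate cultures, so p-values measure only the spread between these libraries, which may be technical. Means are given below with ± the SD over the 3 libraries of a group, and fold changes with ± the SE of the fit.

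WNT ligands are secreted glycoproteins that are lipid-modified by PORCN and carried to the cell surface by WLS. In the canonical branch they bind a Frizzled receptor together with LRP5 or LRP6, a complex of AXIN and APC then stops marking β-catenin (CTNNB1) for destruction, and β-catenin enters the nucleus to act with TCF/LEF factors. In the non-canonical branch, ligands such as WNT5A signal through ROR1, ROR2 or RYK to cell polarity and movement without β-catenin, and in melanoma WNT5A is known for its link to invasive, dedifferentiated cells, whereas β-catenin, LEF1 and MITF belong to the melanocytic program.

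The control libraries held 35057239 to 38738065 counts and those with the T-MGM label 44577774 to 59250663, and mitochondrial genes took 10.7% to 10.9% and 11.7% to 12% of them. The genes of the construct do not check the label, as MAFG differed by -0.06 on the log2 scale (adjusted p = 0.236, DESeq2) and MITF by 0.08 (adjusted p = 4.8e-07, DESeq2), so T-MGM is used below as the label of the libraries. On the scale of TPM (an abundance scaled for transcript length and depth) MITF was at 138 and 133, which did not pass (-0.06, adjusted p = 0.1, limma). MAFG was at 9.88 and 8.48 TPM and passed as lower (-0.20, adjusted p = 0.0222, limma). After GC correction MAFG was at -0.17 (adjusted p = 3.32e-05, DESeq2) and MITF at 0.18 (adjusted p = 2.49e-33, DESeq2). All 7 melanocyte lineage markers were above 1 TPM in every library. Their summed level was 1140 to 1170 TPM with GFP and 972 to 1010 TPM with the T-MGM label. In the count fit DCT (-2.49), MLANA (-0.68), TYR (-0.35) and S100B (-0.21) were lower and SOX10 (0.11), PMEL (0.05) and MITF higher on the log2 scale, all 7 passing, although SOX10 and PMEL were at -0.03 and -0.02 after GC correction. Summed fibroblast markers were 3.81 to 4.83 TPM and 5.34 to 6.69 TPM, and those of keratinocytes, endothelial cells and immune cells stayed at or under 0.36 TPM in all libraries, with no marker at 0 in every library. Fold changes moved with the GC content of transcripts, with medians of -0.16 and 0.15 on the log2 scale in the lowest and highest GC decile of genes, and values corrected for GC content and length are given beside some results and where they change whether a WNT gene passed. In bulk RNA, fewer cells of a type and less RNA per cell cannot be told apart. The part of the marker and depth differences in the results below was not tested.

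WNT5A and FZD8 were lower and ROR2, RNF43, TCF7, WNT3 and NOTUM were higher in the libraries labelled T-MGM by more than 2-fold. Of the 59 genes, 6 had no count in any library, 9 had at most 3 counts in every library, and 5 further genes had too few counts for DESeq2 to give an adjusted p. Among the 39 genes tested, 18 (46.2%) passed an adjusted p of 0.05, 13 higher and 5 lower. Of all 13917 tested protein-coding genes, which is the class these genes come from, 49.4% passed, and of all 19135 tested genes 38.4% passed, 19.2% in the higher and 19.2% in the lower direction. Called genes, which in addition changed by more than 2-fold, numbered 7 (17.9%), against 4.63% of all tested genes and 4.97% of the protein-coding ones. Of these, 5 were higher and 2 lower, against 3.26% and 1.36% of all tested genes, and with GC correction 6 were called, without NOTUM. For 20 of the 39 genes the 2 groups had normalized counts (counts divided by a size factor per library) with no overlap, against 46.8% of all tested genes. The median log2 fold change over the 39 genes was 0.03 (0.11 with GC correction) against 0.00 over all tested genes, and the median absolute value was 0.43 against 0.25. The split of higher and lower genes among those that passed depended on the scaling, with 11 higher and 7 lower after scaling by total counts and 5 higher and 7 lower in a limma fit of log2(TPM + 1), where the median of all genes itself moved to -0.13.

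**Figure D1:**
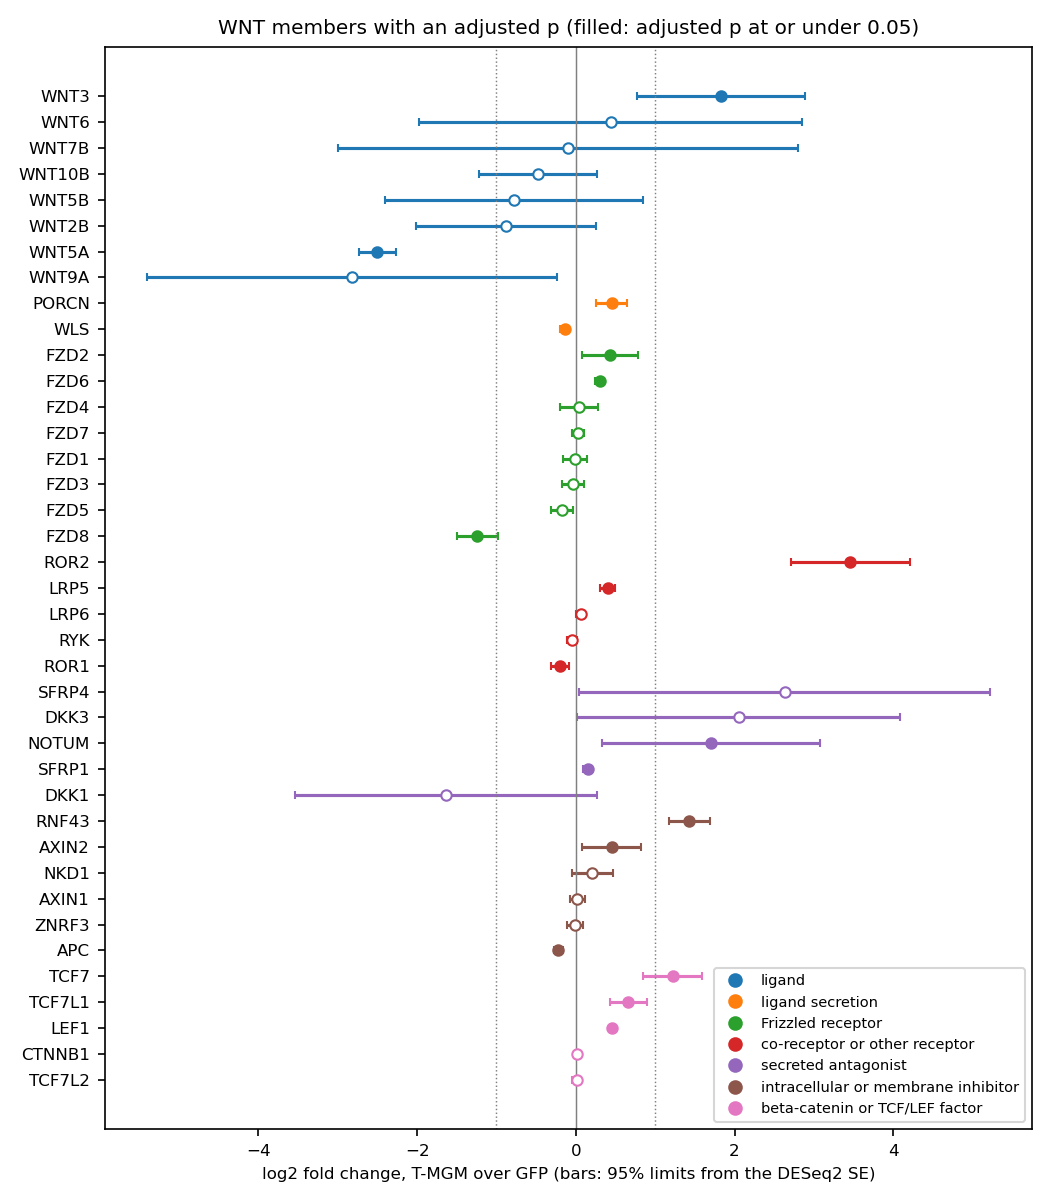
Log2 fold change (T-MGM over GFP, x axis) of the 39 tested WNT genes (y axis), coloured by role, with 95% limits from the DESeq2 standard error as bars and filled points for an adjusted p at or under 0.05. WNT5A at -2.50 and ROR2 at 3.46 lie farthest from 0 among the filled points, and the receptors FZD1, FZD3, FZD4 and FZD7 lie within 0.05 of it.

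The sequences before the transcription start of the 5 called genes with the most counts are shown because these genes carry the called changes, and so that the letters searched can be seen in place. They are the 250 bases before a RefSeq start (GRCh38.p14), written 5′ to 3′ on the strand of the gene. WNT5A has 2 RefSeq starts, and the window of the upstream one is chr3:55487307-55487556. For FZD8 it is chr10:35642297-35642546, for ROR2 chr9:91950229-91950478 and for RNF43 the downstream of its RefSeq starts, chr17:58402722-58402971, all on the minus strand, and for TCF7 the downstream of its RefSeq starts, chr5:134123368-134123617, on the plus strand. Of the windows of RNF43 and TCF7, the one with more matches is shown. Capitals mark matches to any of the letters searched.
WNT5A: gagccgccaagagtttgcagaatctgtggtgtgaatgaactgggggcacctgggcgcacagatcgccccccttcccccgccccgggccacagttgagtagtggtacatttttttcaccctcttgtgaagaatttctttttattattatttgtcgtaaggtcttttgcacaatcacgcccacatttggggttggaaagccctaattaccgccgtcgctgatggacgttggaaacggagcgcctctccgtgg
FZD8: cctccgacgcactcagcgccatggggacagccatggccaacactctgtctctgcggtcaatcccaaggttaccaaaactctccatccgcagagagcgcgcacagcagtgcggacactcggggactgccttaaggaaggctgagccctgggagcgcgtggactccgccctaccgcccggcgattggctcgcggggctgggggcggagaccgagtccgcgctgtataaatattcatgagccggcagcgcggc
ROR2: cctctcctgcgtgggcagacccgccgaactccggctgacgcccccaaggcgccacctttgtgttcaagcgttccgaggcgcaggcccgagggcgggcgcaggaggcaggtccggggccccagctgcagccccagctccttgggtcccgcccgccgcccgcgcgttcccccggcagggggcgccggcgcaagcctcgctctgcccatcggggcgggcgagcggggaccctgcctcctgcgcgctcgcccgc
RNF43: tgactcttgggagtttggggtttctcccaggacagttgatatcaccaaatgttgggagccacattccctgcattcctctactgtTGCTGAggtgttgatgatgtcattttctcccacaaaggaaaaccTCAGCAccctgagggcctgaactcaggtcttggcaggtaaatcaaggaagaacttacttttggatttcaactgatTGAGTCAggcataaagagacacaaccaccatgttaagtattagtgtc
TCF7: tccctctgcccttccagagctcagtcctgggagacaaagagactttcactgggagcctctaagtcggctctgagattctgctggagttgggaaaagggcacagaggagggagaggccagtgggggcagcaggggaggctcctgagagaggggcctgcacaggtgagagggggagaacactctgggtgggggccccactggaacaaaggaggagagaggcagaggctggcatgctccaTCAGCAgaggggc
On both strands of windows from 250 bases before to 50 bases after each start, the search covered the TCF/LEF letters CTTTGAT and CTTTGAA, the E-box CACGTG and M-box CATGTG that MITF is known to bind, the MAF core site TGCTGA and the AP-1 type site TGAGTCA. RefSeq windows were found for 42 of the 59 genes (52 windows). RNF43 held MAF core sites starting 166 and 122 bases before its downstream start and an AP-1 type site 47 bases before it, none of which overlap, and another MAF core site lay 85 bases before its upstream start. TCF7 held a MAF core site 13 bases before its downstream start, and the window of its upstream start held none of the letters. The windows of WNT5A, FZD8, ROR2 and WNT3 held none of these letters, and NOTUM had no window. Over all 35116 RefSeq windows, the MAF core site occurred in 17.3%, the AP-1 type site in 4.95%, the M-box in 11.1%, the E-box in 7.26% and the TCF/LEF letters in 6.86%, and over the 52 windows of the WNT genes they occurred in 4, 1, 6, 1 and 1 windows. A match is a description of letters only.

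WNT5A, the ligand of the non-canonical branch, was the most abundant ligand in the GFP libraries and had the largest fall among those that passed. Normalized counts of WNT5A (ENSG00000114251, GRCh38 chromosome 3, 55465715 to 55490539) were 642, 797 and 731 with GFP and 135, 112 and 135 with the T-MGM label. The groups were far apart, and the libraries within each group lay close together. The level fell 5.66-fold, from 723 ± 78.0 to 127 ± 13.2 normalized counts, with a log2 fold change of -2.50 ± 0.12 (adjusted p = 1.87e-100, DESeq2) and -2.42 after GC correction. Genes within 10 Mb of WNT5A moved the other way, with a median log2 fold change of 0.31 over 151 genes. The antisense gene WNT5A-AS1, which overlaps it, had no count in any library.

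WNT3, a canonical ligand, was higher in the libraries labelled T-MGM but at few counts. Its raw counts were 8, 9 and 5 with GFP and 30, 19 and 58 with the T-MGM label, so that replicate 3 held more than the other libraries even for its depth. Normalized counts of WNT3 rose from 8.35 ± 2.29 to 29.6 ± 12.3, with a log2 fold change of 1.83 ± 0.54 (adjusted p = 0.00224, DESeq2). Without T-MGM replicate 3 the log2 fold change was 1.46 and no longer passed (adjusted p = 0.0725, DESeq2), and with shrunken fold changes it was 0.37.

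None of the other 6 tested ligands passed. WNT10B, the next most abundant ligand, had raw counts of 42, 49 and 29 with GFP and 22, 55 and 34 with the T-MGM label, and these overlapped (log2 fold change -0.48 ± 0.38, adjusted p = 0.355, DESeq2). WNT9A had 7, 5 and 4 raw counts with GFP and 1 in each library labelled T-MGM (-2.82 ± 1.32, adjusted p = 0.0788, DESeq2). WNT2B (-0.88), WNT5B (-0.78), WNT6 (0.44) and WNT7B (-0.10) had at most 18 counts in any library. WNT4, WNT9B, WNT10A and WNT11 had no adjusted p. WNT1, WNT2, WNT7A, WNT8A and WNT16 were at the floor of 3 counts, which corresponds to 0.0506 to 0.0856 CPM (counts scaled to library depth) depending on the library, and WNT3A and WNT8B had no count, so a difference in them was not detectable at this depth. Together the 19 ligand genes summed to 3.72 ± 0.656 TPM with GFP and 1.16 ± 0.206 TPM with the T-MGM label. WNT5A made up 70.7%, 73.5% and 73.5% of that sum with GFP and 44.1%, 30.0% and 39.3% with the T-MGM label, so it remained a large share of a smaller total.

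Both genes of ligand secretion passed, in opposite directions and under 2-fold. PORCN, the acyltransferase that lipidates WNT proteins, rose from 413 ± 62.0 to 565 ± 19.9 normalized counts (log2 fold change 0.45 ± 0.10, adjusted p = 2.6e-05, DESeq2). It did not pass with limma on log2(TPM + 1), at 0.24 (adjusted p = 0.0954, limma). WLS, the carrier of lipidated ligands, was 4250, 4310 and 4290 with GFP and 3950, 3840 and 3840 with the T-MGM label, and fell by 0.14 on the log2 scale (adjusted p = 4.79e-06, DESeq2). Genes within 10 Mb of WLS had a median log2 fold change of -0.22, and relative to them WLS was at 0.08. After GC correction WLS was at -0.13 and the median of those genes at -0.08, so WLS was then the lower.

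Among the 10 Frizzled receptors, FZD8 was the only one called. Normalized counts of FZD8 (ENSG00000177283, chromosome 10, 35638247 to 35642296) were 342, 354 and 305 with GFP and 134, 133 and 155 with the T-MGM label. All 3 libraries with that label lay well under the lowest GFP library. The mean fell from 334 ± 25.5 to 141 ± 12.5, 2.36-fold, with a log2 fold change of -1.24 ± 0.13 (adjusted p = 1.85e-19, DESeq2) and -1.40 after GC correction. Shrinkage of fold changes gave -0.99 and limma on log2(TPM + 1) gave -0.71, both under 2-fold. Limma on log2(TPM + 0.1) gave -1.27 (adjusted p = 0.00105, limma).

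FZD6, which is linked to planar cell polarity, was the most abundant Frizzled gene per transcript length and was higher with the T-MGM label. Its normalized counts were 3070, 3050 and 3070 with GFP and 3680, 3830 and 3840 with that label (log2 fold change 0.30 ± 0.03, adjusted p = 1.61e-19, DESeq2). The value for FZD6 was 0.46 after GC correction and 0.14 with limma on log2(TPM + 1), and passed in both. FZD2 rose from 105 ± 13.5 to 141 ± 12.4 and passed narrowly (0.43 ± 0.18, adjusted p = 0.0457, DESeq2). FZD2 did not pass when any 1 library other than GFP replicate 2 was left out, with adjusted p of up to 0.21 (DESeq2). Its log2 fold change with a library left out was 0.36 to 0.55. After GC correction FZD2 was at 0.34 and did not pass (adjusted p = 0.135, DESeq2).

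FZD7, a receptor of both branches, did not differ beyond the spread, at 2040, 2070 and 1970 normalized counts with GFP and 2040, 2120 and 2050 with the T-MGM label. Its 95% limits were -0.05 to 0.11 on the log2 scale. FZD1 (-0.01), FZD3 (-0.04), FZD4 (0.04) and FZD5 (-0.17, adjusted p = 0.0641, DESeq2) also missed the threshold, although FZD5 passed without GFP replicate 3 or T-MGM replicate 2, at -0.22 each, and after GC correction, at -0.19. FZD9 had at most 8 counts and no adjusted p, and FZD10 was at the floor. Summed over the 10 genes, Frizzled levels were 37.6 ± 0.489 TPM with GFP and 36.9 ± 0.359 TPM with the T-MGM label, and the ranges of the groups overlapped. Within that sum, FZD6 made up 45.9% to 46.9% with GFP and 52.4% to 52.5% with the T-MGM label, FZD7 28% to 28.6% and 26.2% to 27.2%, and FZD8 4.13% to 4.69% and 1.63% to 1.88%.

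ROR2, a receptor tyrosine kinase that binds WNT5A, had the largest rise among those that passed. Raw counts of ROR2 (ENSG00000169071, chromosome 9, 91563091 to 91950228) were 12, 6 and 6 with GFP and 123, 99 and 127 with the T-MGM label. The gene was barely detected in the first group and clearly present in every library of the second. Normalized counts rose 11.0-fold, from 9.25 ± 4.46 to 101 ± 9.95, with a log2 fold change of 3.46 ± 0.38 (adjusted p = 1.11e-18, DESeq2) and 3.36 after GC correction.

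ROR1, its paralog, moved the other way and by less, from 1690 ± 115 to 1470 ± 89.9 normalized counts (log2 fold change -0.20 ± 0.06, adjusted p = 0.00153, DESeq2). Without GFP replicate 3 it was -0.14 and did not pass (adjusted p = 0.0554, DESeq2). Genes within 10 Mb of ROR1 had a median of -0.13. After GC correction ROR1 was at -0.15 and passed (adjusted p = 0.0193, DESeq2), and the median of those genes was -0.08. ROR1 nevertheless stayed the more abundant of the pair in every library. ROR2 made up 0.373% to 0.96% of their summed TPM with GFP and 6.43% to 11.6% with the T-MGM label.

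LRP5, a co-receptor of the canonical branch, rose from 1480 ± 81.1 to 1960 ± 57.3 normalized counts (log2 fold change 0.40 ± 0.05, adjusted p = 1.45e-15, DESeq2). Genes within 10 Mb of LRP5 had a median of 0.22. With GC correction LRP5 was at 0.25 and the median of those genes at 0.14. The related co-receptor LRP6 did not pass (0.06 ± 0.03, adjusted p = 0.084, DESeq2), but did without GFP replicate 3 (0.087) or T-MGM replicate 3 (0.081) and after GC correction (0.16, adjusted p = 3.27e-08, DESeq2). On the TPM scale LRP6 was at -0.10 and did not pass (adjusted p = 0.46, limma). RYK, an atypical kinase receptor, was at -0.05 ± 0.03 (adjusted p = 0.198, DESeq2) and passed without T-MGM replicate 1, at -0.075. The direction of RYK depended on the correction, as it passed as higher after GC correction (0.11, adjusted p = 0.001, DESeq2) and as lower with limma on log2(TPM + 1) (-0.19, adjusted p = 0.0073, limma). The median of all genes in that limma fit was -0.13.

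**Figure D2:**
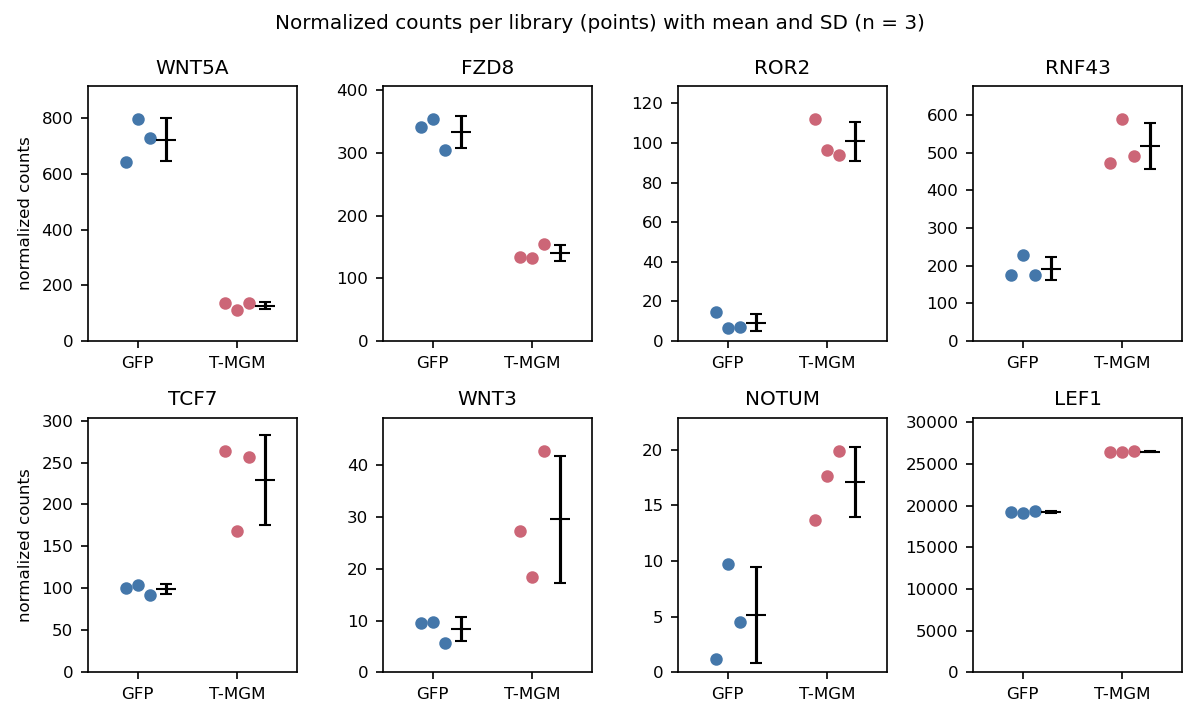
Normalized counts (y axis, from 0) of the 7 called WNT genes and LEF1 in each library, by group (x axis), with bars for the mean and SD of 3 libraries. The groups do not overlap in any of the panels, and WNT3, NOTUM and TCF7 show the widest spread among the libraries labelled T-MGM relative to their mean.

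Secreted antagonists were mostly near or under detection, with a single exception. SFRP1, a secreted Frizzled-like protein that binds WNT ligands, made up 97.5% to 99.6% of the summed TPM of the 11 antagonist genes in every library. It was 5670, 5700 and 5840 normalized counts with GFP and 6350, 6540 and 6290 with the T-MGM label (log2 fold change 0.15 ± 0.03, adjusted p = 9.73e-09, DESeq2), whereas limma on log2(TPM + 1) gave 0.01 (adjusted p = 0.884, limma) and its TPM values overlapped between the groups at 25.5 to 26.5 and 25.3 to 27.0. NOTUM, an enzyme that removes the lipid from WNT proteins, had 1, 9 and 4 raw counts with GFP and 15, 18 and 27 with the T-MGM label. Its log2 fold change was 1.70 ± 0.70 (adjusted p = 0.0388, DESeq2), and the call was lost without any 1 library other than GFP replicate 2, with log2 fold changes of 1.25 to 2.55 and adjusted p of up to 0.175, and with GC correction (1.52). DKK1, DKK3 and SFRP4 had at most 18 counts in any library and did not pass (-1.64, 2.05 and 2.63). DKK2, SFRP2 and SFRP5 were at the floor, and DKK4, DKKL1 and WIF1 had no count.

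RNF43, a membrane ubiquitin ligase that removes Frizzled receptors from the cell surface, was the called gene among the intracellular and membrane inhibitors. Normalized counts of RNF43 (ENSG00000108375, chromosome 17, 58353676 to 58417595) were 174, 228 and 174 with GFP and 474, 589 and 491 with the T-MGM label. The lowest library of the second group held more than 2-fold the highest of the first. The mean rose 2.69-fold, from 192 ± 31.6 to 518 ± 62.2, with a log2 fold change of 1.43 ± 0.13 (adjusted p = 2.17e-28, DESeq2) and 1.41 after GC correction. Whether reads were counted by strand is uncertain, and the opposite-strand gene TSPOAP1-AS1, which overlaps RNF43, was at 40.6 and 42.9 normalized counts. With limma on log2(TPM + 1) or log2(TPM + 0.1) the log2 fold change of RNF43 was 0.57 and 0.91, under 2-fold. ZNRF3, its paralog, did not pass (-0.01 ± 0.05, adjusted p = 0.898, DESeq2) and stayed the more abundant of the pair. RNF43 made up 10.7% to 13.7% of their summed TPM with GFP and 20.7% to 23.2% with the T-MGM label, while the sum itself was 9.04 ± 1.14 and 9.33 ± 0.641 TPM.

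AXIN2, a scaffold of the destruction complex and a widely used readout of canonical signaling, passed narrowly. Its normalized counts were 142, 140 and 132 with GFP and 140, 251 and 176 with the T-MGM label, so the groups overlapped and 1 library carried most of the difference. The log2 fold change was 0.45 ± 0.19 (adjusted p = 0.0451, DESeq2), and without T-MGM replicate 2 it was 0.20 (adjusted p = 0.478, DESeq2). AXIN2 also did not pass without any 1 GFP replicate or without T-MGM replicate 3, at 0.42 to 0.50, or after GC correction (0.40, adjusted p = 0.0869, DESeq2). APC, a scaffold of the same complex, fell from 4370 ± 141 to 3740 ± 150 (-0.22 ± 0.03, adjusted p = 2.11e-10, DESeq2), and its GC-corrected value was -0.12. AXIN1 (0.02, adjusted p = 0.867, DESeq2) did not pass but did so as lower after GC correction (-0.14, adjusted p = 0.0185, DESeq2). NKD1, an inhibitor of Dishevelled, did not pass (0.21 ± 0.13, adjusted p = 0.213, DESeq2), and NKD2 had no count.

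CTNNB1, which encodes β-catenin, was at 16100, 16400 and 16000 normalized counts with GFP and 16700, 16100 and 16600 with the T-MGM label. The groups overlapped and the 95% limits were -0.01 to 0.06 on the log2 scale (log2 fold change 0.02, adjusted p = 0.329, DESeq2). Genes within 10 Mb of CTNNB1 had a median log2 fold change of 0.28. With GC correction their median was 0.23, and CTNNB1 itself was at 0.08 and passed (adjusted p = 3.87e-05, DESeq2). On the TPM scale CTNNB1 was lower with the T-MGM label, at 149 and 135 TPM (-0.14 with limma on log2(TPM + 1), adjusted p = 0.0188, limma). The median of all genes in that fit was -0.13, so CTNNB1 was close to it.

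All TCF/LEF factors other than TCF7L2 were higher in the libraries labelled T-MGM. LEF1, the most abundant of these factors and the gene with the highest TPM of the 59, was at 19300, 19100 and 19400 normalized counts with GFP and 26500, 26400 and 26600 with the T-MGM label. The spread within each group was small beside the difference, which was 1.38-fold (log2 fold change 0.46 ± 0.01, adjusted p = 8.39e-219, DESeq2; 0.43 after GC correction). The opposite-strand gene LEF1-AS1, which overlaps LEF1, was also higher, at 271 and 382 normalized counts (log2 fold change 0.50, adjusted p = 9.7e-05, DESeq2), and without certain strand information the counts of the pair cannot be told apart. TCF7 (ENSG00000081059, chromosome 5, 134114681 to 134151865), a factor best known from T cells, was at 101, 104 and 92.5 with GFP and 264, 168 and 257 with the T-MGM label. It rose from 99.1 ± 5.89 to 229 ± 53.5, with a log2 fold change of 1.22 ± 0.19 (adjusted p = 4.24e-10, DESeq2) and 1.13 after GC correction. With shrunken fold changes the value for TCF7 was 0.82 and with limma on log2(TPM + 1) 0.62, both under 2-fold. With limma on log2(TPM + 0.1) it was 1.07 (adjusted p = 0.00593, limma). SKP1, which overlaps TCF7 on the opposite strand, was at 5720 and 5870 normalized counts and did not pass (0.04, adjusted p = 0.303, DESeq2). TCF7L1, known mainly as a repressor of WNT targets, rose from 287 ± 53.1 to 454 ± 27.4 (0.66 ± 0.12, adjusted p = 1.77e-07, DESeq2), and was at 0.52 after GC correction. It did not pass with limma on log2(TPM + 1), at 0.28 (adjusted p = 0.0877, limma). TCF7L2 did not pass (0.01 ± 0.03, adjusted p = 0.896, DESeq2).

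LEF1 made up 83.6% to 84.1% of the summed TPM of the 4 TCF/LEF genes with GFP and 86.9% to 87.2% with the T-MGM label. TCF7 made up 0.233% to 0.309% and 0.428% to 0.644%, so the called factor remained the rarest of the family. Per transcript length, the order of the 59 genes in the GFP libraries began with LEF1 (232 TPM), CTNNB1 (149 TPM), WLS (44.4 TPM), RYK (41.7 TPM) and TCF7L2 (41.6 TPM). The ranges of WLS, RYK and TCF7L2 overlapped there, at 41.6 to 47.4, 40.2 to 43.1 and 40.1 to 43.3 TPM, so their order is not beyond the spread. In the libraries labelled T-MGM the same genes were at 296, 135, 36.7, 36.5 and 38.8 TPM. The next genes in the GFP libraries were SFRP1 (26.0 TPM), LRP5 (18.0 TPM) and FZD6 (17.5 TPM), with 26.1, 23.8 and 19.4 TPM in the libraries labelled T-MGM, and LRP5 and FZD6 overlapped with GFP. The called genes were all rare by this measure, WNT5A at 2.71 and 0.43 TPM, FZD8 at 1.68 and 0.637 TPM, RNF43 at 1.07 and 2.08 TPM, TCF7 at 0.773 and 1.74 TPM and ROR2 at 0.05 and 0.547 TPM.

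**Figure D3:**
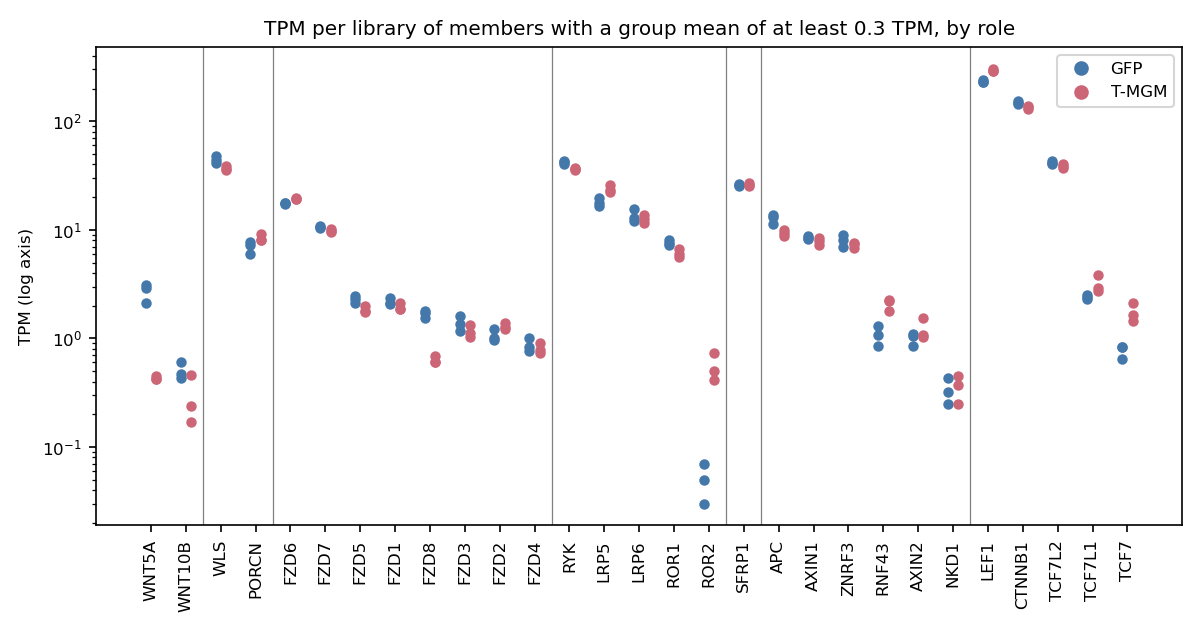
TPM values (y axis, log scale) of the WNT genes with a group mean of at least 0.3 TPM in each library, grouped by role from ligands at the left to β-catenin and TCF/LEF factors at the right. LEF1 and CTNNB1 lie above 100 TPM, and ROR2, at 0.03 to 0.07 TPM with GFP and 0.41 to 0.73 TPM with the T-MGM label, shows the widest gap between groups.

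A list of 61 other genes of the pathway was read in the same way. Of these, 52 were tested and 36 (69.2%) passed, 21 higher and 15 lower, and 4 (7.69%) were called, all higher. The median log2 fold change was 0.12, and 0.02 after GC correction. On the TPM scale with log2(TPM + 1) the split was 10 higher and 17 lower. Of all tested genes 38.4% passed and 4.63% were called, 3.26% as higher. Among those with a mean of at least 50 normalized counts, 54.0% passed and 3.21% were called.

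The called genes of this list other than CELSR2 act at the cell surface against WNT signals. TRABD2A, a membrane protease that cleaves WNT proteins, had normalized counts of 21.6, 10.8 and 18.3 with GFP and 85.8, 53.7 and 72.3 with the T-MGM label (log2 fold change 2.07 ± 0.36, adjusted p = 4.58e-08, DESeq2). Its relative TRABD2B was at 331, 311 and 283 and at 681, 722 and 700 (1.18 ± 0.09, adjusted p = 3.46e-37, DESeq2). TPBG, a membrane glycoprotein that dampens canonical signals, was at 133, 155 and 115 and at 296, 309 and 330 (1.21 ± 0.14, adjusted p = 1.66e-16, DESeq2). On log2(TPM + 1) with limma, TRABD2A was at 0.44, TRABD2B at 0.77 and TPBG at 0.60, all under 2-fold. On log2(TPM + 0.1), TRABD2A was at 1.18 (adjusted p = 0.0461, limma), TRABD2B at 1.08 (adjusted p = 0.0142, limma) and TPBG at 0.99. Shrunken values of TRABD2A and TPBG were 0.75 and 0.94. In each of these genes, which were picked because they were called, every library labelled T-MGM exceeded every GFP library. Of all tested genes, 46.8% had no overlap between the groups. CELSR2, a cadherin of planar cell polarity, rose from 502 ± 18.4 to 1010 ± 45.4 (1.01 ± 0.07, adjusted p = 3.5e-42, DESeq2), close to the 2-fold limit, and fell under it without GFP replicate 3 (0.99) or T-MGM replicate 2 (0.98), after GC correction (0.86) and with limma on log2(TPM + 1) (0.57).

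Other polarity genes passed in the same direction under 2-fold, namely VANGL2 (0.65), PRICKLE1 (0.62), CELSR1 (0.56), PRICKLE2 (0.48) and the Dishevelled-associated formin genes DAAM2 (0.18) and DAAM1 (0.17). With limma on log2(TPM + 1), DAAM1 and DAAM2 were both at 0.03 and did not pass (adjusted p = 0.77 and 0.492, limma). VANGL2, PRICKLE1, CELSR1 and PRICKLE2 passed there. PTK7 passed at 0.16 but was at 11.9 and 10.2 TPM, which did not pass (-0.20, adjusted p = 0.0731, limma on log2(TPM + 1)). After GC correction PTK7 was at 0.03 and did not pass (adjusted p = 0.631, DESeq2). VANGL1 passed in the opposite direction (-0.17), and CELSR3 (0.24) and INVS (-0.04) did not pass. DAAM1 did not pass without GFP replicate 1 or T-MGM replicate 1. Among nuclear cofactors of β-catenin, BCL9 fell by 0.68 on the log2 scale while its paralog BCL9L rose by 0.52, and the corepressor TLE1 (-0.43) and the β-catenin inhibitor CTNNBIP1 (-0.43) fell. The Dishevelled gene DVL1 fell by 0.38, whereas DVL2 (0.00) and DVL3 (0.03) did not pass. Genes within 10 Mb had medians of -0.26 for DVL1, -0.23 for CTNNBIP1, -0.19 for BCL9, -0.15 for TLE1 and 0.00 for BCL9L. APC2 (0.80), DACT1 (0.97), DACT3 (0.66) and CBY1 (0.56), all described as inhibitors of the pathway, rose (DACT1 not without T-MGM replicate 3). The secreted or membrane antagonists APCDD1 (-0.69) and KREMEN1 (-0.22) fell. AMER1 fell as well (-0.34), but did not pass without GFP replicate 1 or T-MGM replicate 3. APC2, DACT1, DACT3 and AMER1 passed in none of the 3 limma fits, and CBY1, APCDD1 and KREMEN1 in some of them. The R-spondin receptor LGR5 and DACT2 had no count, and no R-spondin gene had an adjusted p. LGR4, another R-spondin receptor, was at 742 and 823 normalized counts and did not pass (0.15, adjusted p = 0.123, DESeq2). After GC correction LGR4 passed as higher (0.23, adjusted p = 0.00987, DESeq2).

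Of 20 genes known as β-catenin targets in other tissues or in melanocytes, 15 were tested and 11 (73.3%) passed, 10 higher and 1 lower, and none was called. Of all tested genes 38.4% passed and 4.63% were called. Of those with a mean of at least 50 normalized counts, 54.0% passed and 3.21% were called. The median log2 fold change over the 15 was 0.28, and 0.20 after GC correction, against 0.00 over all tested genes. In the TPM fit with log2(TPM + 1) 7 passed, 5 higher and 2 lower. JUN (0.70), FOSL1 (0.66), ID2 (0.66) and CD44 (0.64) had the largest rises, and CCND1, which encodes cyclin D1, was at 48200 ± 511 and 66100 ± 695 normalized counts (0.45). Genes within 10 Mb had medians of 0.22 for CCND1, 0.23 for FOSL1, 0.07 for CD44, -0.02 for ID2 and -0.13 for JUN. JUN and FOSL1 encode AP-1 proteins and CD44 a surface receptor, and all of them have other known inputs. SNAI2, a transcription factor of neural crest cells, was the gene that fell (-0.57), and MYC did not pass (0.02, adjusted p = 0.599, DESeq2). MITF is itself on this list and part of the construct. The WNT genes that are also known as targets gave 5 that passed higher, LEF1, TCF7, RNF43, NOTUM and AXIN2, and 3 that did not pass, NKD1, ZNRF3 and DKK1. Of these, NOTUM and AXIN2 did not pass after GC correction (adjusted p = 0.0779 and 0.0869, DESeq2) or with the replicate block.

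**Figure D4:**
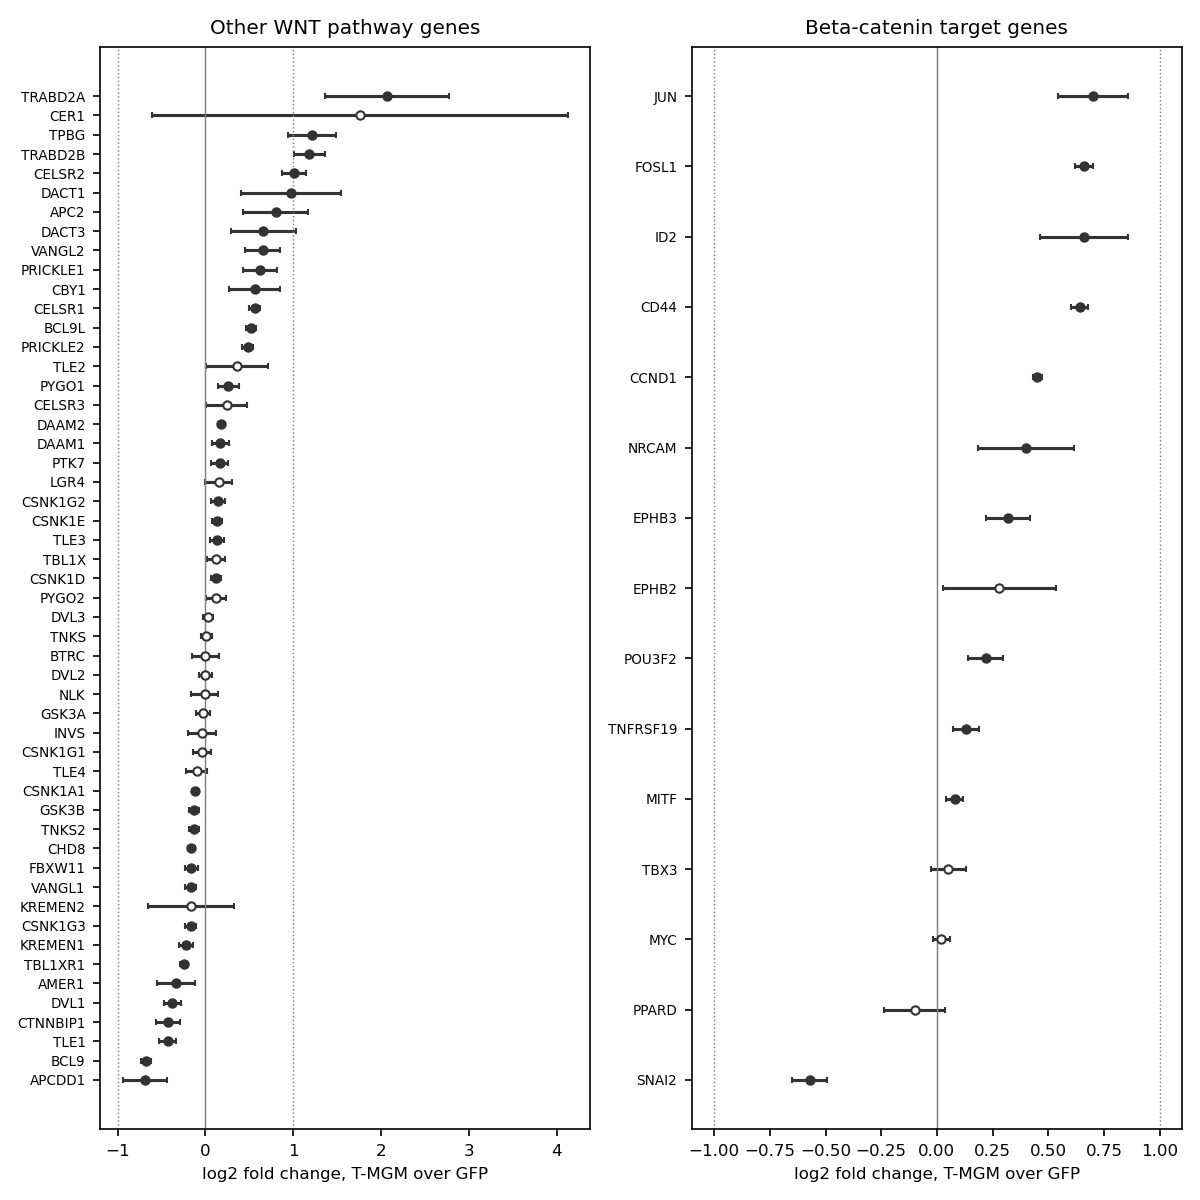
Log2 fold change (T-MGM over GFP, x axes) of the 52 tested genes of the other pathway list (left) and the 15 tested β-catenin target genes (right), with 95% limits from the DESeq2 standard error as bars and filled points for an adjusted p at or under 0.05. The 4 called pathway genes lie at 1.01 to 2.07, and no target gene passes 1 in either direction.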

How the data were processed

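Reads were trimmed by the authors with cutadapt 1.8.1 and aligned to GRCh38 with STAR 2.7.7a (versions from the submitters' processing notes), and featureCounts assigned the uniquely aligned ones to genes. These deposited counts were whole and not normalized. The authors also deposited TPM values, made with RSEM 1.3.0, which are scaled for length and depth. The annotation release was not given in the sources used here, and the kit named in the labels keeps no strand information while that in the methods does, so counts of overlapping genes are uncertain.

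The deposited counts were compared with DESeq2 1.42.0 (R 4.3.3) over all genes, following the study's methods, with 2-sided Wald tests, size factors by the median of ratios, no covariate and independent filtering at 0.05. Genes passed at an adjusted p (Benjamini-Hochberg) of 0.05 or less and were called with a fold change over 2 in addition. Undefined adjusted p-values were kept undefined. Floors cover counting error only. Positions and overlaps came from GENCODE release 44 (99.4% of gene identifiers matched).

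The alternatives were edgeR 4.0.16, limma 3.58.1 on log2(TPM + 1) or log2(TPM + 0.1) with or without a minimum of 0.5 TPM in 3 libraries, other scalings and count filters (10 counts in 3 or in all libraries), shrunken fold changes, offsets for GC content and length (lowess span 0.3), subtraction of the median of genes within 10 Mb, the replicate number as a block and each library left out. The fits were tested on simulated data. Called genes are given with every library, genes passing under 2-fold with means where the absolute log2 fold change is at least 0.3, and genes that missed the threshold where the mean is at least 50; some pathway and target genes under 2-fold, and low-count genes, were named after their values were seen. The genes and lists were chosen with earlier results of these data known.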

Additional observations from a re-analysis of the deposited data

How the results depend on the processing

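The count of WNT genes that passed was 18 and ranged from 12 to 20 over all alternatives, with 15 to 17 when a library was left out. The count of called WNT genes, 7, was 4 with at least 10 counts in every library, 3 with shrunken fold changes, 1 and 3 with limma on log2(TPM + 1) and log2(TPM + 0.1) and 1 without a TPM filter, and 5 to 7 when a library was left out. ROR2, WNT3 and NOTUM were removed by the filter of 10 counts in every library and by that on TPM. Without T-MGM replicate 2, WNT10B was called lower. The other pathway genes that passed, 36, were 17 with limma on log2(TPM + 1) without a filter and 34 to 36 when a library was left out. β-catenin target genes that passed, 11, were 7 in each of the 3 limma fits and 11 to 12 when a library was left out. The 2 limma fits with a TPM filter differ only in the number added to TPM before the log. With 1 and 0.1 added, RNF43 was at 0.57 and 0.91, TCF7 at 0.62 and 1.07 and FZD8 at -0.71 and -1.27. WNT5A was at -1.36 and -2.39 in these fits and stayed beyond 1 in every fit, at -2.81 to -1.36. Apart from this number and the shift of the median of all genes to between -0.13 and -0.15, the cause of the changes in the limma fits was not tested.

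Same-numbered libraries did not deviate together (Pearson's r over 12654 genes -0.00234, -0.0404 and 0.0426), so the numbers were not treated as pairs, and T-MGM replicate 3 alone correlated best with the GFP library of its number. With the replicate block 15 WNT genes passed (AXIN2, FZD2 and NOTUM were lost) and 6 were called, and 35 other pathway genes and 11 target genes passed. With the block and GC correction together the counts were 17, 6, 28 and 12.

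Directions changed for genes with log2 fold changes near 0. Less the median of genes within 10 Mb, without GC correction, WLS was at 0.08, FZD5 at 0.06, RYK at 0.03 and CTNNB1 at -0.26. In the 3 limma fits LRP6 was at -0.10, -0.11 and -0.10, AXIN1 at -0.11, -0.12 and -0.11, FZD7 at -0.11, -0.12 and -0.11, FZD4 at -0.046, -0.089 and -0.046, TCF7L2 at -0.10 and CTNNB1 at -0.14 in each. With scaling by total counts AXIN1 was at -0.038, TCF7L2 at -0.046, FZD7 at -0.023, CTNNB1 at -0.030 and FZD4 at -0.011. With GC correction, without and with the replicate block, AXIN1 was at -0.14 and -0.15, FZD3 at 0.12 and 0.12, FZD7 at -0.072 and -0.071, FZD1 at 0.0025 and 0.0016 and RYK at 0.11 and 0.11, where it passed as higher, whereas it passed as lower in the limma fits (-0.19). ZNRF3 was at 0.00022 with TMM factors. When a library was left out, AXIN1 ranged from -0.010 to 0.063, TCF7L2 from -0.0064 to 0.033, FZD1 from -0.078 to 0.047, FZD4 from -0.047 to 0.16 and ZNRF3 from -0.052 to 0.020. At 3 libraries a group, changes of genes with few counts, such as those with at most 3 counts in every library, could not be measured.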
